A study of Mus musculus with 8 samples.

Results

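A stretch of 200 kb on mouse chromosome 2, from 84.85 to 85.05 Mb on the mm9 build, was chosen by the methylation levels of the female parents of a B6 by DBA cross, because it holds one of the 100-kb windows with the most cytosines called different between them. It spans *Tnks1bp1* (ENSMUSG00000033955.6, plus strand, chr2:84888179-84913205) and *Aplnr* (ENSMUSG00000044338.7, plus strand, chr2:84976517-84980079). Of 10364720 cytosines with at least 10 reads in at least 1 mouse, 1713 lay in the stretch, and 158 of 905033 had 10 reads in all 8 mice. Liver DNA came from 1 female and 1 male of each of 4 groups, all 16 weeks old and fasted for 16 h: inbred C57BL/6J (B6), inbred DBA/2J (DBA), BXD F1 mice with a B6 mother and a DBA father, and DXB F1 mice with a DBA mother and a B6 father. Reduced representation bisulfite sequencing (RRBS) cuts DNA at CCGG with MspI, sequences the ends of the fragments, and counts methylated (unconverted) and unmethylated (converted) reads at each cytosine. Total counts over all cytosines were lowest for the DBA male (200744653) and highest for the BXD male (845527087), and 367 (DBA male) to 1574 (B6 female) cytosines of the stretch had 10 reads. Each strain has 1 mouse of each sex, so the exact intervals cover the error of counting reads but not the spread of mice within a strain.

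Methylation of cytosine in mammals lies mostly at CG, where both strands carry the mark and it is copied at each cell division. CG-rich gene starts are usually free of it, whereas CGs inside transcribed genes are usually methylated, and levels between these ends occur where cells or the parental chromosomes differ. *Tnks1bp1* encodes a binding partner of tankyrase, an enzyme that adds ADP-ribose chains to proteins, and *Aplnr* encodes the G protein-coupled receptor of the peptide apelin, best known in blood vessels and heart.

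A cytosine was called when both mice had at least 10 reads, the exact 95% binomial interval of each excluded the level of the other, and the levels differed by more than 50 percentage points. Between the female parents 14 of 1107 tested cytosines were called, and since these calls chose the stretch they are given as a description. The genome-wide share was 0.0955%. Of the 14, 13 were CGs, all higher in B6 and all in coding exons of *Tnks1bp1*, out of 126 CGs tested. Genome-wide 0.498% of tested CGs were called higher in B6. The remaining call was a cytosine outside CG, between genes and higher in DBA. No CG of *Aplnr* was called.

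Of the 13 CGs, 11 lay within 735 bp of each other, starting 14948 bp after the start of *Tnks1bp1*, in the large coding exon at chr2:84902045-84904173 (2129 bp). They belong to 2 MspI fragments that begin with the CGs at 84903127 and 84903661. The other pair lay 6551 bp further on, in the next exon (chr2:84910145-84910514). The reference sequences below are shown because they carry every called CG. They are plus strand of NCBIM37 (mm9), with the called CGs in capitals and all other bases in lower case.

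first fragment, chr2:84903126-84903321: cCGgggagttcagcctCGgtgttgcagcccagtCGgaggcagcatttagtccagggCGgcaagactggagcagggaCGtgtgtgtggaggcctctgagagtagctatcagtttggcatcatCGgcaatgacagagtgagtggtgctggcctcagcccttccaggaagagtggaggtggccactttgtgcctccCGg
second fragment, chr2:84903660-84903910: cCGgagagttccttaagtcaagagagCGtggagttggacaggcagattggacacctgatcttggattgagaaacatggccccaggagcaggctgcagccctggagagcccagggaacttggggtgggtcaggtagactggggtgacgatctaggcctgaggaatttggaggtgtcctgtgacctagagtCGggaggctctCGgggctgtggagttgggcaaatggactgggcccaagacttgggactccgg
fragment with the pair, chr2:84910300-84910457: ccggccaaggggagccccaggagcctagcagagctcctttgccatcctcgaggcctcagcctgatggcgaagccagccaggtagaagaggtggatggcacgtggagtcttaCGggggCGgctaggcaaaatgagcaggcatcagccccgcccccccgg

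The first fragment (196 bp) holds 7 CGs, of which 7 were tested and 7 called. The second (251 bp) holds 6, of which 5 were tested and 4 called. The fragment with the pair (158 bp) holds 8, of which 8 were tested and 2 called. These fragment counts take each CG once, whereas in the other counts each strand of a CG is a site. All 13 called CGs had another CG called in the same direction within 100 bp, and 12 of 13 had one within 50 bp. With a difference above 30 points 13 of 14 had one within 100 bp. Sequencing covers the fragment ends, and CGs at the same end are read on the same molecules, so the 13 CGs are not independent observations.

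**Figure D1:**
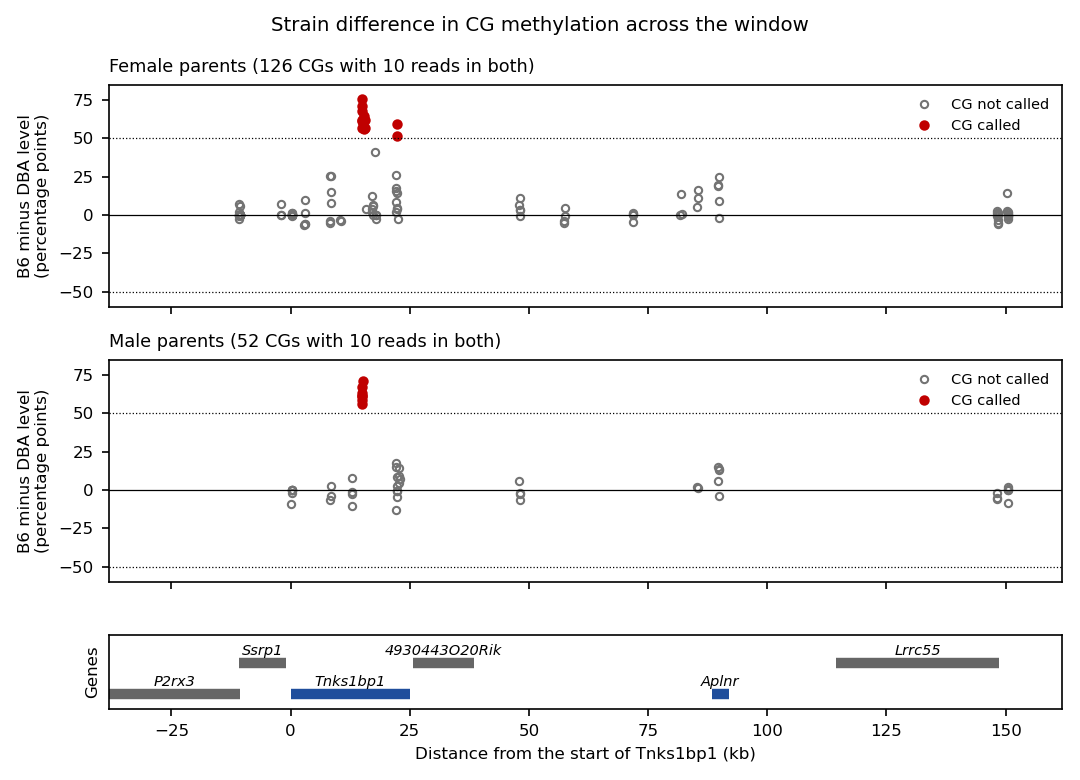
B6 minus DBA methylation level (percentage points, y axis) at each CG with 10 reads in both parents, against distance from the start of Tnks1bp1 (kb), for the female parents (upper panel, 126 CGs) and the male parents (middle panel, 52 CGs). Filled red points are called CGs, dotted lines mark 50 points in each direction, and the lower panel shows the main genes. The 13 called CGs of the female parents and the 7 of the male parents all sit inside Tnks1bp1, and none lies in Aplnr.

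At the CG at 84903127, at the cut end of the first fragment, the methylated share was 100% of 80 reads (B6 female), 100% of 98 (B6 male), 38.8% of 147 (DBA female) and 41.5% of 41 (DBA male). In the F1 mice the level was 81.8% in the BXD female, 57.9% in the BXD male, 70.1% in the DXB female and 80.2% in the DXB male. The B6, F1 and DBA mice thus formed 3 ranges that did not overlap. At 84903142 the level was 91.2% and 90.8% in the B6 female and male, 20.4% and 29.3% in the DBA female and male, and 66.9%, 49.8%, 59.8% and 67.3% in the BXD female, BXD male, DXB female and DXB male. At 84903159 it was 93.8% and 100% in B6, 25.9% and 32.5% in DBA, and 71.6%, 52.2%, 66.1% and 72.1% in the same F1 mice. These neighbours had the same 3 ranges, with each F1 mouse between the strains.

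Further into the fragment 3 CGs were reached by reads of the parents and the BXD male alone. At 84903182 the level was 98.8% (B6 female), 96.9% (B6 male), 23.1% (DBA female), 33.3% (DBA male) and 49.8% (BXD male). This CG had the largest difference of the 13 between the female parents, 75.7 points. At 84903202 it was 76.3%, 76.0%, 14.3%, 15% and 27.3% in the same order, and at 84903248 it was 76.4%, 74.2%, 19.6%, 18.2% and 41.9%. At the last 2 of these CGs B6 was not fully methylated and DBA was lower than at 84903182, and the female-parent differences were 62.0 and 56.8 points. At the far end, 84903320, the level was 82.0% (B6 female), 89.2% (B6 male), 22.3% (DBA female) and 18.2% of 11 reads (DBA male), and it was 61.3%, 45.3%, 51.7% and 54.8% in the BXD female, BXD male, DXB female and DXB male.

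The male parents were not used to choose the stretch. They had 10 reads at 314 of its cytosines and 52 of its CGs, and 7 were called, all CGs, all higher in B6 and all in the first fragment. The genome-wide shares were 0.101% of tested cytosines and 0.312% of tested CGs called higher in B6, against 2.23% and 13.5% in the stretch. The 7 are the same CGs that were called between the female parents, and they come from the 2 ends of 1 fragment. The B6 male minus DBA male difference ran from 56.0 to 71.1 points, with a median of 61.5 points, against a median of 62.0 points in the female parents. By Fisher's exact test with Benjamini-Hochberg adjustment over all cytosines tested in the genome, 6 of the 7 passed, with adjusted p from 9.29e-16 to 0.00123. The seventh, 84903248, had 11 reads in the DBA male and an adjusted p of 0.135 by the same exact test.

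Within a strain the female and male differed little at these 7 CGs. B6 female minus B6 male ran from -7.22 to 2.21 points, and DBA female minus DBA male from -10.3 to 4.12 points. Averaged over the 7 CGs, the level was 88.3% (B6 female), 89.6% (B6 male), 23.5% (DBA female) and 26.9% (DBA male). The difference between strains was larger than the spread within a strain at each of the 7. Calls above 50 points in both pairs picked these CGs, so this is a description and not a test. Over the whole stretch, counts from reads with a strain SNP were 1620 B6 and 0 DBA in the B6 male, and 8593 B6 and 34 DBA in the B6 female.

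In the second fragment the CG at 84903661 was methylated in 93.6% of 157 reads in the B6 female, 96.7% of 30 in the B6 male and 29.4% of 269 in the DBA female. The F1 mice had 60.3% (BXD female), 43.2% (BXD male), 50.8% (DXB female) and 59.8% (DXB male). At 84903686 the level was 83.4% in the B6 female, 83.3% in the B6 male, 27.8% in the DBA female, and 55.9%, 45.9%, 52.0% and 55.7% in the F1 mice in that order. The B6 and F1 mice and the DBA female again did not overlap. At the other end of the fragment, 84903850 was at 92.1%, 94.4% and 30.1% in the B6 female, B6 male and DBA female and at 57.7% in the BXD male, and 84903861 was at 92.1%, 88.9% and 35.3% with 63.4% to 71.0% in the F1 mice. The DBA male had at most 2 reads at these 4 CGs, so the second fragment could not be compared between the male parents.

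Next to the cluster on this side a CG was methylated in both strains. The CG at 84903909 lies 48 bp from the last called CG, in the same fragment, and its level was 99.0% of 101 reads in the B6 female, 100% of 18 in the B6 male, 94.9% of 156 in the DBA female and 91.4% to 100% in the F1 mice. The next CGs, at 84905341 to 84905416 in the following intron, were at 91.6% to 100% in the B6 female and 80.5% to 96.5% in the DBA female. Further into that intron 84905946 was again higher in the B6 female than in the DBA female, by 40.9 points, and is described with the CGs near the threshold. The previous CG measured in both female parents lay 4446 bp before the cluster. The male parents had 10 reads in both mice at 4 nearer CGs, 84901084 to 84901132 in an intron, with a mean of 4.17% in B6 and 5.71% in DBA and none called. Between these and the cluster no CG had 10 reads in both parents of either sex, so where the difference begins was not measured.

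**Figure D2:**
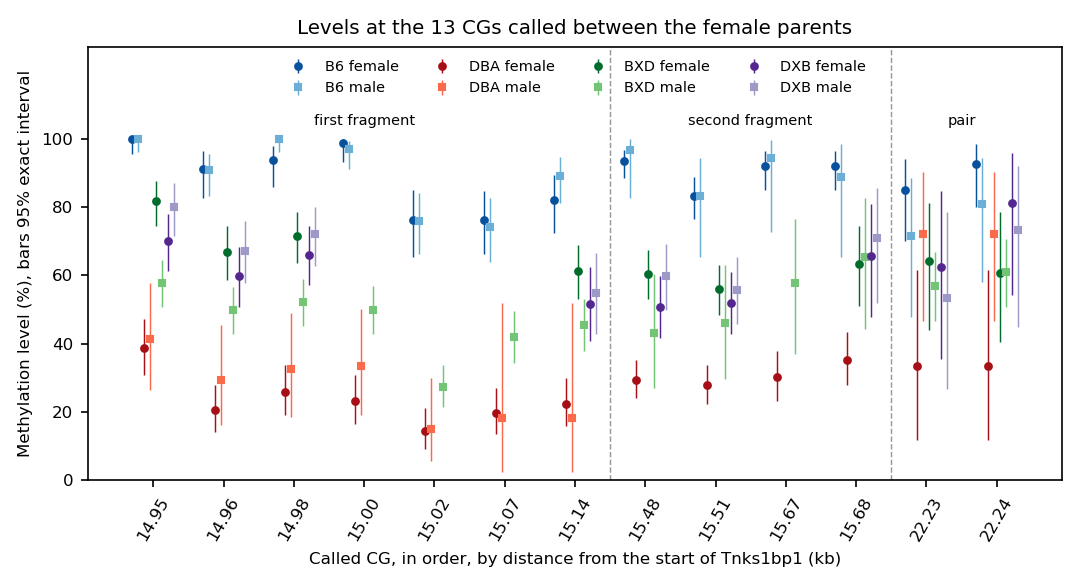
Methylation level (%, y axis) of each mouse with 10 reads, with its exact 95% binomial interval, at the 13 CGs called between the female parents, ordered by distance from the start of Tnks1bp1 (kb, x axis, not to scale). Blue points (B6) lie above green and purple points (F1), which lie above red points (DBA), at the 7 CGs of the first fragment and the 4 of the second, whereas at the pair the DBA male lies above all 4 F1 mice at the first CG and among them at the second.

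The pair at 84910412 and 84910418 rested on 15 reads in the DBA female and was not called in the male parents. With a minimum of 20 reads neither was called between the female parents, and with Fisher's exact test in place of the intervals the call at 84910412 was lost, which leaves 84910418 without a called neighbour. At 84910412 the level was 85% of 40 reads in the B6 female and 33.3% of 15 in the DBA female, but 71.4% of 21 and 72.2% of 18 in the males of B6 and DBA. At 84910418 it was 92.7% and 33.3% in the female parents and 81.0% and 72.2% in the male parents. Both were tested in the male parents, where the differences were -0.79 and 8.73 points (Fisher's exact test, adjusted p of 1 for both). DBA female minus DBA male was -38.9 points at each, a larger gap than between the males of the 2 strains. The DBA mice went the other way at 84910301 on the same fragment, with 81.0% of 21 reads in the female and 38.5% of 13 in the male. The exact 95% intervals of the DBA mice at 84910412, 11.8% to 61.6% and 46.5% to 90.3%, overlap. Across the 9 called cytosines with 10 reads in both male parents, 8 had the direction of the female parents, and 84910412 was the exception.

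In the F1 mice the mean level of the 4 CGs of the first fragment measured in all 8 mice was 70.4% (BXD female), 51.3% (BXD male), 61.9% (DXB female) and 68.6% (DXB male). The parents had 91.8% and 95% (B6 female and male) and 26.8% and 30.3% (DBA female and male). Over the 3 CGs of the second fragment read in all mice but the DBA male, the F1 means were 59.9%, 51.5%, 56.2% and 62.1% in the same order, the B6 mice had 89.7% and 89.6% and the DBA female had 30.8%. On a scale from the DBA female (0%) to the B6 female (100%), summed over the 9 called CGs with 10 reads in every F1 mouse, the F1 mice stood at 58.4%, 38.6%, 53.6% and 58.6%, a mean of 52.3% ± 9.43 (SD, n = 4). The scale rests on the values that chose the CGs, and with the male parents as its ends the mean was 43.0% ± 14.5 (SD, n = 4) over 6 CGs, with the BXD male at 21.5%. These 6 include the pair, where all 4 F1 means lay below those of both male parents, and over the 4 CGs of the first fragment alone, a choice made after seeing the data, the mean was 50.6% ± 13.4 (SD, n = 4). Of the F1 values at the called CGs, 31 of 32 in the cluster and 6 of 8 at the pair had an exact 95% interval between the levels of the female parents, whose large differences chose these CGs. Against the male parents, counted after seeing the data, the interval lay between their levels for 19 of 19 values in the first fragment and 0 of 8 at the pair. The 19 values come from the same fragment and are not independent. At the pair the male parents differed by -0.79 and 8.73 points, less than the width of any F1 interval. The 0 of 8 was thus fixed by the male parents and says nothing about the F1 mice.

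**Figure D3:**
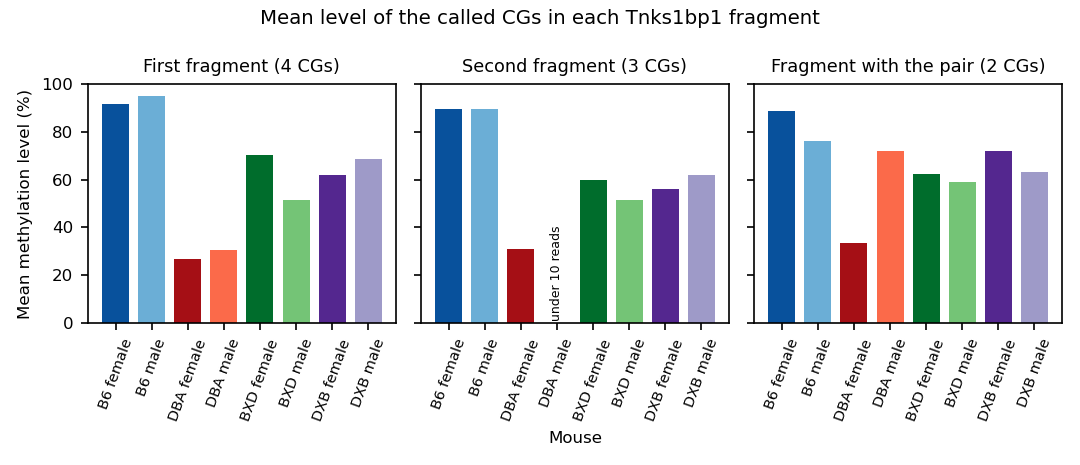
Mean methylation level (%, y axis, bars from 0) of the called CGs in each of the 3 Tnks1bp1 fragments, 1 bar for each mouse and no error bar since each bar is 1 mouse. In the first fragment the F1 mice (51.3% to 70.4%) stand between B6 and DBA, and in the fragment with the pair the DBA male (72.2%) stands with the F1 and B6 mice while the DBA female (33.3%) is below all others.

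The BXD male had the lowest level of the F1 mice at 6 of the 7 CGs of both cluster fragments measured in all 4. At the 4 CGs of the first fragment, 11 of the 12 values of the other F1 mice lay above the upper bound of its exact 95% interval, for example 64.7% at 84903127. At the 3 CGs of the second fragment, where it had 26 to 37 reads, 0 of 9 did. The counting error of the other mice was not used in these counts. CGs at the same fragment end are read on the same molecules, so the values are not independent. The BXD male was singled out after its levels were seen. Its library was also the deepest of the 8 and the only F1 library to reach the CGs in the middle of the fragments, and the part of this in the lower level was not tested. The other BXD mouse, the female, was the highest of the F1 mice at 4 of the 7 CGs, so the direction of the cross did not separate the F1 mice.

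Reads could be assigned to the B6 or DBA chromosome only where they carry a SNP, and none did at the 11 CGs of the cluster or at the pair. Within the F1 mice, between 52 and 128 cytosines of the stretch had 10 reads of each chromosome. In the BXD female 2 of 68 were called between the chromosomes (2.94%, against 1.69% genome-wide), in the BXD male 1 of 128 (0.781%, against 1.01%), in the DXB female 1 of 52 (1.92%, against 1.75%) and in the DXB male 1 of 52 (1.92%, against 1.73%). These shares rest on 1 or 2 cytosines each and are near the genome-wide ones. The calls are 2 cytosines, the CG at 84910348 in the BXD female and the cytosine outside CG in all 4 mice.

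The CG at 84910348 lies on the same fragment as the pair, 64 bp before it, on the opposite strand. Its B6-tagged reads were methylated in 85.7% of 14 and its DBA-tagged reads in 10% of 10 in the BXD female, in 59.4% of 69 and 39.8% of 88 in the BXD male, and in 77.8% of 18 and 53.8% of 13 in the DXB male. B6 was higher in each, but the call rests on 1 mouse with few reads (Fisher's exact test, adjusted p of 0.026, 0.975 and 1 in these mice), and without the BXD female 1 called cytosine is left in the stretch. In the parents its level was 73.9% (B6 female), 33.3% (B6 male), 47.6% (DBA female) and 46.2% (DBA male), so the sexes of B6 differed more than the strains. On the same fragment in the BXD male, B6-tagged reads were higher at 84910301 (94.2% against 78.4%), at 84910367 (86.4% against 68.6%) and at 84910399 (61.2% of 67 against 29.1% of 86). Of these, 84910399 passed Fisher's exact test in that mouse (adjusted p of 0.00694) with a difference of 32.1 points, below the 50 points a call needs. At 84910301 and 84910367 the adjusted p of the exact test was at least 0.402 in each mouse.

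The cytosine outside CG was the 1 call higher in DBA. It lies on the minus strand at 84945753, between *4930443O20Rik* and *Aplnr*, and its surroundings are printed to show its bases (NCBIM37, minus strand, the cytosine in capitals, followed by an a and so outside CG in the B6 reference).

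chr2:84945733-84945773: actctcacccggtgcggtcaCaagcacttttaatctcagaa

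It was methylated in 0% of 72 reads in the B6 female, 0% of 38 in the B6 male, 58.1% of 62 in the DBA female and 66.7% of 6 in the DBA male, too few for the test. In the F1 mice the level was 30.1% (BXD female), 28.8% (BXD male), 26.8% (DXB female) and 24.7% (DXB male), about midway. Split by chromosome, the B6-tagged reads were at 1.96% of 51, 0% of 57, 0% of 41 and 0% of 43, and the DBA-tagged reads at 65.9% of 41, 65.2% of 46, 53.7% of 41 and 62.1% of 29 in the same order. The DBA chromosome was higher in 4 of 4 F1 mice, with differences of 53.7 to 65.2 points and adjusted p of 5.1e-10, 1.83e-12, 7.83e-07 and 7.72e-08 by Fisher's exact test. Mean levels outside CG over the stretch were 0.272% (B6 male) to 1.77% (DXB female), and of 981 such cytosines tested in the female parents 4 others had a level above 10% in a parent. Every read at 84945753 in the parents carried a strain SNP, and whether a base change beside the cytosine places it in a CG in DBA was not tested. The CGs at 84945759 and 84945764 on the same reads stood at 47.9% and 54.2% in the B6 female and at 48.4% and 50% in the DBA female, and in the F1 mice neither differed between the chromosomes by the exact test (adjusted p of 1).

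**Figure D4:**
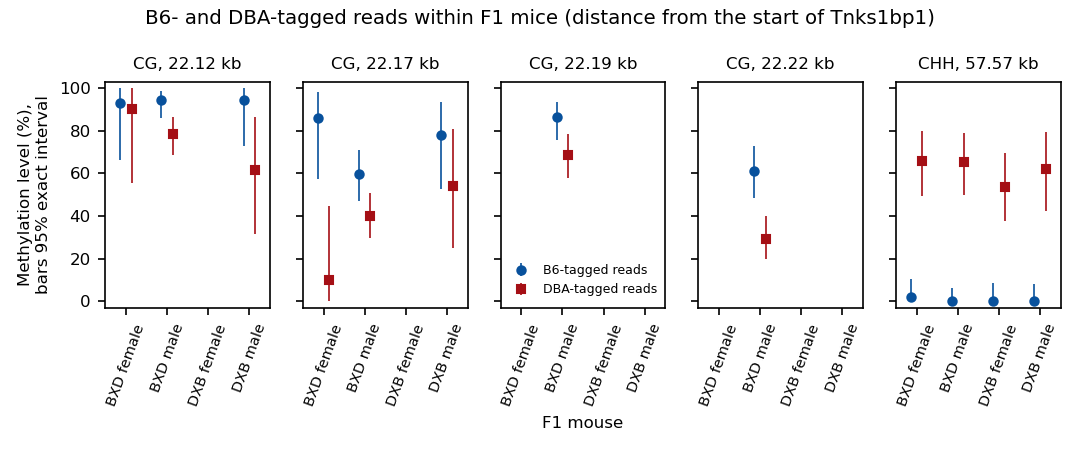
Methylation level (%, y axis) of B6-tagged (blue circles) and DBA-tagged (red squares) reads within each F1 mouse, with exact 95% binomial intervals, at the 4 tagged CGs on the fragment with the pair and at the cytosine outside CG (CHH, H being A, C or T), named by distance from the start of Tnks1bp1. Mice with under 10 reads of either tag have no points. At the CHH cytosine B6-tagged reads were at 0% to 1.96% and DBA-tagged reads at 53.7% to 65.9%.

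*Aplnr* has 1 exon, and 5 CGs were measured in it, 1310 to 1500 bp after its start: 84977827 and 84977889 at the end of the coding part, and 84977954, 84977980 and 84978017 in the 3′ untranslated part. Levels were intermediate in every mouse. At 84977827 they were 60.1% (B6 female), 65.2% (B6 male), 40.5% (DBA female), 59.3% (DBA male), 58.3% (BXD female), 62.3% (BXD male), 61.2% (DXB female) and 40.7% (DXB male). The DBA female and the DXB male were low here, and the 6 other mice lay within 58.3% and 65.2%, so the low mice differed in sex and in group. The DBA female was below the B6 female by 19.6, 19.0 and 24.8 points at the first 3 CGs, which is under the 50 points of a call. The male parents differed by 5.96, 15.2 and 13.8 points at the first 3 CGs, where the DBA male had 10 to 27 reads. In the male parents none of the 5 CGs passed Fisher's exact test (adjusted p of 1 for each). With so few DBA male reads, the test in the males does not decide whether the strains differ here.

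Over the 3 CGs of *Aplnr* read in all mice, the mean level was 47.6% and 48.1% in the B6 female and male, 38.6% and 43.1% in the DBA female and male, and 47.6%, 50.9%, 44.6% and 35.6% in the BXD female, BXD male, DXB female and DXB male. The F1 mice spread over a wider range than the parents, and the parents of both strains fell inside it. No read in *Aplnr* allowed its chromosomes to be compared at 10 reads of each tag.

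**Figure D5:**
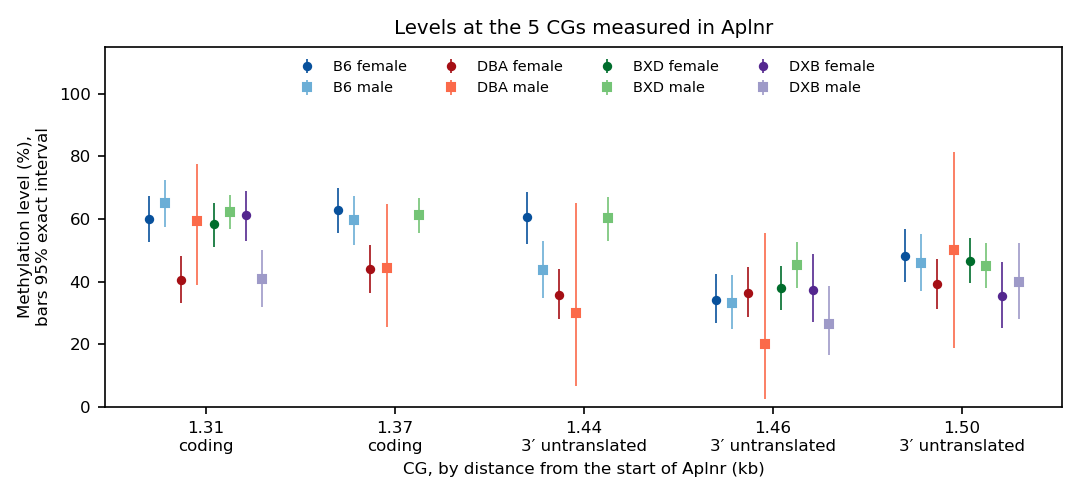
Methylation level (%, y axis) with its exact 95% binomial interval for each mouse with 10 reads at the 5 CGs measured in Aplnr, ordered by distance from its start (kb, x axis, not to scale). The levels lie between 20% and 65.2%. At the first 3 CGs both B6 points lie above both DBA points, and at the other 2 the strains overlap.

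Elsewhere in the stretch both strains had the same broad pattern, given for the female parents as means over the CGs tested in both. The 21 CGs at the shared start of *Ssrp1*, a subunit of a histone chaperone, and *P2rx3*, an ATP-gated ion channel, were at 1.36% in B6 and 0.812% in DBA. The 13 just after the start of *Tnks1bp1* were at 0.461% and 0.275%. Another CG near the start of *Tnks1bp1*, 84888374 on the plus strand, had under 10 reads in the female parents and stood at 13.2% of 53 reads in the B6 male, 22.4% of 67 in the DBA male and 11.1% to 25.7% in the F1 mice. Inside *Tnks1bp1*, means were 31.2% and 32.6% over 5 CGs in a group centred 2694 bp after the start, 87.9% and 77.1% over 6 in one centred 8434 bp after it, and 85.7% and 78.9% over 10 in the intron after the cluster. The group with the pair was at 83.0% and 64.8% over 11 CGs, and the cluster exon at 89.9% and 31.8% over 12, the widest gap of these groups. In the male parents the group centred 8434 bp after the start was at 77.4% (B6) and 79.7% (DBA) over 3 CGs. The group with the pair was at 79.2% (B6 male) and 74.1% (DBA male) over 12 CGs. These 12 are not the same set as the 11 of the female parents. For example, 84911005 to 84911045 are in the male set alone, so the means of the sexes are not matched by CG. At the far end, 9 CGs of *Lrrc55*, which encodes a leucine-rich repeat membrane protein, were at 93.4% and 94.4%. Of the 113 CGs tested and not called, 96 differed by at most 10 points between the female parents, with a median absolute difference of 1.81 points, and 54 were higher in B6, 30 lower and 29 equal.

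Just inside the threshold stood 84910412, 84903686 and 84903248, with female-parent differences of 51.7, 55.7 and 56.8 points. Just outside stood 84905946 (40.9 points), 84910348 (26.3 points) and 84896555, tied with 84896617 (25.5 points each). The CG at 84905946, in the *Tnks1bp1* intron after the cluster, is described because it differed from the cluster in its F1 levels. It was methylated in 63.8% of 69 reads in the B6 female, 54.5% of 33 in the B6 male and 22.9% of 70 in the DBA female, and in 25.7%, 25.9%, 21.3% and 29.4% in the BXD female, BXD male, DXB female and DXB male. All 4 F1 mice stood near the DBA female and below both B6 mice, whereas at the cluster they stood between the strains. The DBA male had no reads at 84905946, so the DBA level there rests on the female alone and the male parents could not be compared.

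Means over the 25 CGs of the stretch with 10 reads in all 8 mice were compared between groups. They were 61.4% (B6 female), 58.1% (B6 male), 42.0% (DBA female), 47.4% (DBA male), 56.1% (BXD female), 50.4% (BXD male), 52.8% (DXB female) and 54.1% (DXB male). Females had 53.1% ± 8.22 and males 52.5% ± 4.64 (SD, n = 4 each), a difference of 0.579 points (two-sided exact permutation test, p = 0.914, where 0.0286 is the smallest possible). The 8 mice were permuted freely, so the pairing of 1 female and 1 male in each group was not used. The female was the higher in B6 and BXD and the lower in DBA and DXB. F1 mice had 53.4% ± 2.37 and parents 52.2% ± 9.10 (SD, n = 4 each), a difference of 1.17 points (exact permutation p = 0.829). BXD mice had 53.3% ± 4.0 and DXB mice 53.5% ± 0.906 (SD, n = 2 each), a difference of -0.21 points, and with 2 against 2 mice the exact permutation p of 1 cannot go below 0.333. None of these differences was larger than the spread between mice. Parents, females and males each hold both strains, and the 25 CGs include called ones. Their spread thus includes the strain difference that chose the stretch, and a large p says little about sex or hybrids. Over the 19 CGs not called in the parents, females minus males was 0.836 points (exact permutation p = 0.629). F1 minus parents was 1.47 points over the same CGs (exact permutation p = 0.314).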

How the data were processed

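RRBS libraries of liver DNA from 8 mice were described by their labels as B6, DBA, BXD or DXB, 1 female and 1 male each. The authors aligned reads to mm9 with BS Seeker, kept unique alignments, called SNPs and sorted reads that carry a SNP to the B6 or DBA chromosome. For each mouse, cytosine and class of reads the authors deposited raw counts of methylated and unmethylated reads and the methylation level as a fraction. Their tables of comparisons (means, intervals, differences and p-values) were not used. The BS Seeker version is not given in the sources used here.

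Counts of all classes were summed, and each strand of a CG was kept as a site. All 213 CG positions of the stretch match a CG of NCBIM37, and genes are from GENCODE vM1. Scripts ran in Python 3.11.15 (numpy 2.4.6, scipy 1.17.1, pandas 2.3.3, numba 0.67.0 and matplotlib 3.10.9). Calls need 10 reads, exact 95% (Clopper-Pearson) intervals that exclude the other level and a difference above 50 points, following the study's rule. Fisher's exact test was adjusted (Benjamini-Hochberg) over all cytosines tested in the genome, and means were compared by exact permutation of mice. The calling rule was tested on simulated data. By rule, every cytosine called between female parents, male parents or tagged reads was named, with the 3 on each side of the threshold. Other sites (those beside the called ones, in *Aplnr*, or with tagged reads) were named after their values were seen. The stretch, its genes and these rules were chosen with earlier results of these data known. Alternatives covered the minimum of reads, the difference, the test, SNP-free reads, strands added and leaving out mice.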

Additional observations from a re-analysis of the deposited data

How the results depend on the processing

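The counts of called cytosines in the female parents (12 to 16) and male parents (5 to 8) stayed within 1.5 times the reported 14 and 7 under each alternative run. With a minimum of 20 reads, 5 of 5 female-called cytosines kept their direction in the male parents. The count called between tagged reads, 2, was 1 with a minimum of 20 reads, 4 with a difference above 30 points and 1 when calls in at least 2 F1 mice were needed, and 1 to 2 on leaving out each F1 mouse. The F1 share of the way was 43.0% to 55.8% under the alternatives and 50.2% to 56.9% on leaving out each mouse. With the cluster and the pair taken apart, a choice made after seeing the data, it was 51.5% and 55.6%, and 50.6% for the cluster with the male parents as ends. No value exists for called CGs without a neighbouring call, since all have one. The differences of mean level have no stable sign, and none passed its test. Females minus males was -5.89 points with reads pooled and -2.20 to 4.29 points on leaving out each mouse. BXD minus DXB was 4.49 points with reads pooled, 1.38 points without the called CGs and -3.04 to 2.62 points on leaving out each mouse. F1 minus parents was -0.76 points with a minimum of 5 reads, -2.47 points with reads pooled and -2.25 to 4.24 points on leaving out each mouse. The causes were not tested. Fewer cytosines could be tested in the male pair (314) and between tagged reads (52 to 128 in each F1 mouse) than in the female pair (1107). Tagged reads exist only where a read carries a SNP.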

Other observations

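Among uncalled CGs, singled out after their values were seen, 84905561 in the *Tnks1bp1* intron was methylated in 64.0% of 25 reads in the B6 male, against 29.2% of 89 in the B6 female, 23.6% of 89 in the DBA female and 28.6% to 47.8% in the F1 mice. A cytosine outside CG on the first fragment, 84903296, was at 11.4% of 88 reads in the B6 female and 8.6% of 93 in the B6 male, at 0.676% of 148 in the DBA female and 0% of 11 in the DBA male, and at 4.65% to 11% in the F1 mice. Another on the fragment with the pair, 84910391, was at 17.1% of 41, 14.3% of 21, 40.0% of 15 and 0% of 18 in the B6 female, B6 male, DBA female and DBA male, and at 19.0% of 100 in the BXD male. At 84896567, in an intron, 25.9% of 54 reads in the B6 female, 38.5% of 13 in the DBA female and 27.2% of 125 in the BXD male were methylated outside CG. The fourth such cytosine, 84959947 between genes, was at 23.5% of 34 reads in the B6 female, 0% of 14 in the DBA female and 2.13% of 47 in the BXD male.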
